A study of Mus musculus with 4 samples.

Results

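Aminoacyl-tRNA synthetases were followed in 4 RNA-seq libraries of C2C12, a line of mouse myoblasts able to form myotubes in low serum. The genes were taken by symbol from the deposited expression tables: a single letter followed by ars, with or without a final 2, together with Eprs, Farsa, Farsb and Tarsl2. This matched 38 of 13824 gene symbols, and 37 had a mean of at least 1 FPKM (fragments per kilobase of transcript, relative to a library's total of fragments) over the 4 libraries. Of these, 20 carry names of cytosolic enzymes and 17 carry the final 2 of mitochondrial enzymes. The gene left out, Tarsl2, which encodes a further threonyl-tRNA synthetase, was at 0.743 and 0.944 FPKM with scrambled siRNA against 0.825 and 0.918 FPKM after siMEF2A, and the lowest gene kept, Mars2, had a mean of 2.34 FPKM. Every library came from cells given 30 nM siRNA with Lipofectamine and then held in horse serum differentiation medium for 48 h. In 2 libraries, scrambled 1 and 2, the siRNA was a scrambled sequence. In the other 2, siMEF2A 1 and 2, it was directed against Mef2a, which encodes a transcription factor of muscle differentiation. Nothing in the labels says that the libraries of a group came from separate cultures, so p-values reflect the spread among these libraries alone, and that spread may be technical.

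Aminoacyl-tRNA synthetases join each amino acid to its matching tRNA and so supply every step of protein synthesis. Most amino acids have one enzyme for the cytosol and another, made from a separate nuclear gene, for the mitochondrion, where it serves the translation of respiratory chain subunits encoded by mitochondrial DNA. Gars and Kars, for glycine and lysine, serve both compartments from one gene. Several cytosolic enzymes are held in a multi-synthetase complex, and many cytosolic synthetase genes are known targets of ATF4, the transcription factor of the amino acid response. MEF2 factors are known for driving muscle genes, and the comparison asked which genes change when MEF2A is reduced in differentiating myoblasts.

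The targeted gene was lower in both libraries labelled siMEF2A. Mef2a was at 25.8 and 32.2 FPKM with scrambled siRNA against 12.7 and 14.3 FPKM after siMEF2A, 46.5% of the scrambled mean (log2 fold change -1.05, SE 0.15, limma Benjamini-Hochberg adjusted p = 3.35e-05). All 5 myotube markers tested passed as lower (limma adjusted p under 0.05), against 1.32% of all genes. Their summed levels were 473 and 532 FPKM with scrambled siRNA against 250 and 266 FPKM after siMEF2A. Of the 8 markers of proliferating cells 0 passed the test (84.0 and 94.4 FPKM against 93.6 and 92.3 FPKM summed). Of the 6 fibroblast markers 0 passed (287 and 398 FPKM against 404 and 414 FPKM summed), though their median log2 fold change was 0.23. Both siMEF2A libraries were above both scrambled ones for 2 of them, Pdgfra and Dcn, as in 18.8% of all genes. Lum and Col1a1 had negative log2 fold changes (-0.23 and -0.28) with overlapping groups. Among adipocyte and bone cell markers only Fabp4 was tested, at 2.30 and 1.54 FPKM with scrambled siRNA against 0.767 and 1.18 FPKM after siMEF2A. It was lower without passing (log2 fold change -0.56, limma adjusted p = 0.0619). The part of all these markers in the values of the synthetases was not tested. In bulk RNA, fewer cells of a type and less RNA per cell cannot be told apart. Sequencing depth relative to scrambled 1, read from the commonest ratio among low values, was 1.05 in scrambled 2 and 0.849 in both siMEF2A libraries, but only 11 to 17 of 600 genes shared that ratio, and absolute depth was unknown.

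Promoters of the genes were examined because the study compared expression with MEF2A target genes and because ATF4 is a known regulator of this family. RefSeq windows on GRCm38.p6, from 250 bases before to 50 bases after the annotated start, were found for 27 of the 37 genes, 13 cytosolic and 14 mitochondrial, in 28 windows. The MEF2 consensus, searched by its usual degenerate form on both strands, occurred in 2 of the 28 windows, against 3.19% of all 32851 windows. One lies before Dars, the cytosolic aspartate enzyme (chr1:128417417-128417666, minus strand, first base of the match 171 bases before the start). The other lies before Tars2, the mitochondrial threonine enzyme (chr3:95754978-95755227, minus strand, 201 bases before the start). These RefSeq starts lie 57 bases (Dars) and 94 bases (Tars2) upstream of the nearest start of a listed transcript in the GENCODE annotation, which extends Tars2 further upstream, to 95760206, through a model that was not listed. These 2 upstream sequences are shown because they hold the only MEF2 matches among the windows found, with the match in capitals.

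Dars: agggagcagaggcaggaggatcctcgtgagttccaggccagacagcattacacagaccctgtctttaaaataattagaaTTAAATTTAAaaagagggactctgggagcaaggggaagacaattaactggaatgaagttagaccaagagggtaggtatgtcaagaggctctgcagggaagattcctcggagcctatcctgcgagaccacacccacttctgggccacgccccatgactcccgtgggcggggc

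Tars2: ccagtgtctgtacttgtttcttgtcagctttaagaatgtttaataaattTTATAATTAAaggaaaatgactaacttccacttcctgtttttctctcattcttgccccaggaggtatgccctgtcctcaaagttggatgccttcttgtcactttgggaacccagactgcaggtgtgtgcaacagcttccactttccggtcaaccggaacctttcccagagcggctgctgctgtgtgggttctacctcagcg

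The element TGATGNAA, the core of the site bound by ATF4 with C/EBP partners, was searched on both strands and occurred in 5 of the 28 windows, against 3.97% of all windows. All 5 belong to genes counted as cytosolic, Aars, Gars, Iars, Tars and Yars. For Yars, the cytosolic tyrosine enzyme (chr4:129189653-129189913, plus strand), the match begins at base 4, counted from and including the start base. For Gars (chr6:55037751-55038000, plus strand) it begins 30 bases before the start and lies on the opposite strand. These stretches, read 5′ to 3′ along the gene with the match in capitals, are shown because Yars and Gars had the lowest fold changes among genes with a match. A match describes the letters in the window and not binding.

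Yars: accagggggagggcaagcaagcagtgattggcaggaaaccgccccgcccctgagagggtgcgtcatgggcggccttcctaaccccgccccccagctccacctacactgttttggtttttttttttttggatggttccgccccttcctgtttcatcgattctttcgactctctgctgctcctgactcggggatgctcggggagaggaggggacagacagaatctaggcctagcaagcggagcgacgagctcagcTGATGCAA

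Gars: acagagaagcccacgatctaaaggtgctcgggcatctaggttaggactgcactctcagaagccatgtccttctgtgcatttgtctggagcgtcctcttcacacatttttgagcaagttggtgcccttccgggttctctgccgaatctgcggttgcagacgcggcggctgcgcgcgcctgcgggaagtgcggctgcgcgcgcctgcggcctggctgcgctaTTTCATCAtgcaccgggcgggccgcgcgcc

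Cytosolic synthetase genes were listed at higher levels than their mitochondrial counterparts. The median over the 20 cytosolic genes was 24.8 and 30.9 FPKM with scrambled siRNA against 25.7 and 29.2 FPKM after siMEF2A. Over the 17 mitochondrial genes it was 7.43 and 7.00 FPKM with scrambled siRNA against 8.42 and 7.43 FPKM after siMEF2A. The ratio of these medians was 3.33 and 4.41 in scrambled and 3.06 and 3.93 in siMEF2A, so the groups overlapped. Cytosolic means ran from 6.62 FPKM for Yars to 101 FPKM for Sars, the serine enzyme. Next below Sars stood Dars with 66.6 FPKM and Nars, the asparagine enzyme, with 65.1 FPKM, and the 4 values of these last 2 genes overlapped. Mitochondrial means ran from 2.34 FPKM for Mars2 to 542 FPKM for Lars2, and 13 of the 17 lay between 2.34 and 10.6 FPKM.

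**Figure D1:**
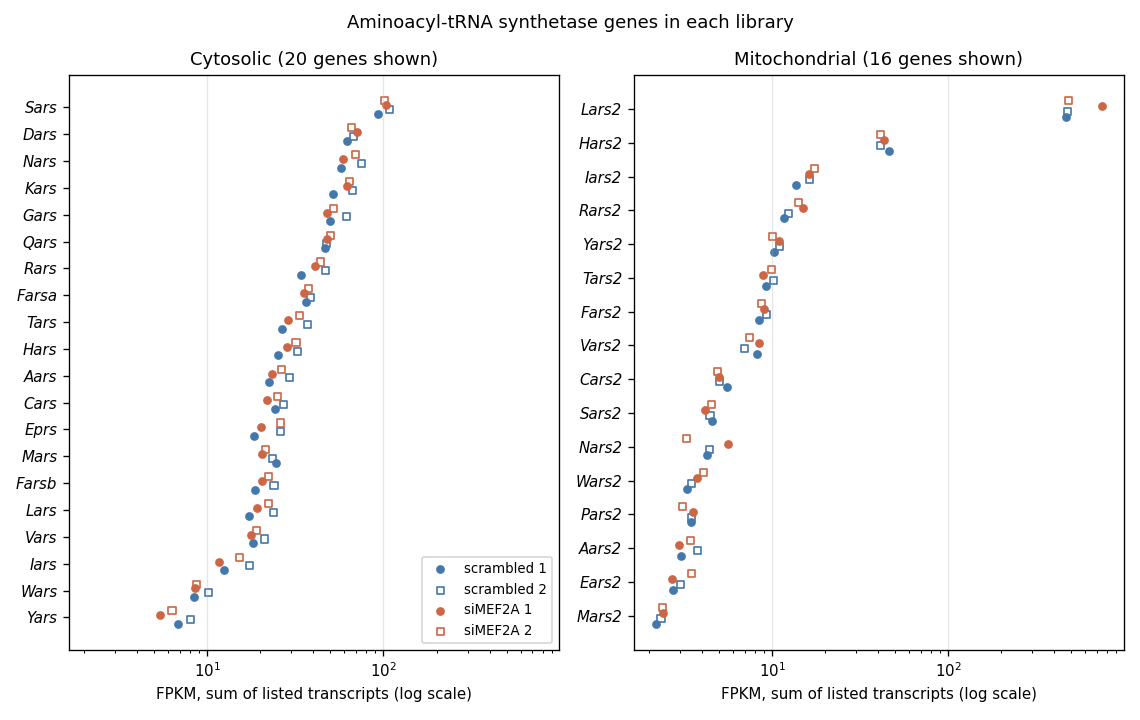
Level of 36 of the 37 synthetase genes in each of the 4 libraries, as FPKM summed over listed transcripts on a log axis, cytosolic on the left and mitochondrial on the right; blue marks scrambled, orange marks siMEF2A, and circles and squares mark libraries 1 and 2. The 4 points of most genes lie close together, and Lars2 stands far above the other mitochondrial genes with siMEF2A 1 highest.

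Lars2, the mitochondrial leucine enzyme (chromosome 9, 123366927 to 123462666, plus strand, mm10), had by far the highest listed FPKM of the synthetases. It was at 464 and 478 FPKM with scrambled siRNA against 742 and 485 FPKM after siMEF2A. Both siMEF2A libraries lay above both scrambled ones, but siMEF2A 2 did so narrowly and siMEF2A 1 stood apart. Its mean ranked 168 of 11824 genes, and in each library it was 4.44 to 7.21 times the next synthetase and made up 33.7% to 46.8% of the summed synthetase FPKM. The log2 fold change was 0.35 (SE 0.22, 95% interval -0.10 to 0.80, limma adjusted p = 1.0), and it was 0.04 without siMEF2A 1. The gene was listed with 1 transcript of 3894 bases. Bases 3278 to 3349 of it, within the 3′ untranslated region, were 98.6% identical over 72 bases to Gm15564, a noncoding gene listed at 3.60, 2.51, 5.13 and 2.91 FPKM in the same order of libraries. Another noncoding gene, AY036118, was compared with Lars2 for its level alone and was not among the sequence matches found at 95% identity or more. It was at 122, 78.6, 83.8 and 80.4 FPKM in that order. Gm15564 was highest in siMEF2A 1 and AY036118 in scrambled 1, and how far reads are shared with Lars2 was not tested. Without Lars2, the summed mitochondrial FPKM was 144 and 148 in scrambled and 151 and 147 in siMEF2A.

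Comparing the enzymes for the same amino acid gave 17 cytosolic to mitochondrial pairs, in which Eprs, the joint glutamate and proline enzyme, and Fars2 each enter 2 pairs. The cytosolic gene was higher in all 4 libraries in 13 pairs. Of these, Sars over Sars2 had the highest ratio in each library over all listed transcripts, with 20.4 and 24.2 in scrambled and 24.7 and 22.5 in siMEF2A, while over coding transcripts alone Nars over Nars2 was higher (25.8 to 33.9). In 3 pairs, for histidine, leucine and tyrosine, the mitochondrial gene was higher in every library, and for leucine the ratio of Lars to Lars2 was 0.0259 to 0.0498. The tyrosine ratio sets noncoding forms of Yars against Yars2, since no coding Yars transcript was listed. Isoleucine was near balance, with an Iars to Iars2 ratio of 0.917 and 1.06 in scrambled and 0.715 and 0.877 in siMEF2A. Between groups the ratio was lower in both siMEF2A libraries than in both scrambled ones in 4 pairs, for isoleucine, methionine, tryptophan and tyrosine, and higher in 0 pairs. For single genes the same pattern held in 9.14% of all genes lower and 18.8% higher, and no such share was computed for ratios. Over coding transcripts alone, the ratio was lower without overlap for isoleucine, overlapped for methionine and tryptophan, and had no value for tyrosine. These ratios were not tested. For histidine the order depends on which transcripts are counted: Hars over Hars2 was 0.544 to 0.784 over all listed transcripts, and 1.61 to 2.15 over protein-coding transcripts alone. Hars and Hars2 also share 195 exon bases on opposite strands. With no stated use of strand, the reads of that stretch cannot be told apart.

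**Figure D2:**
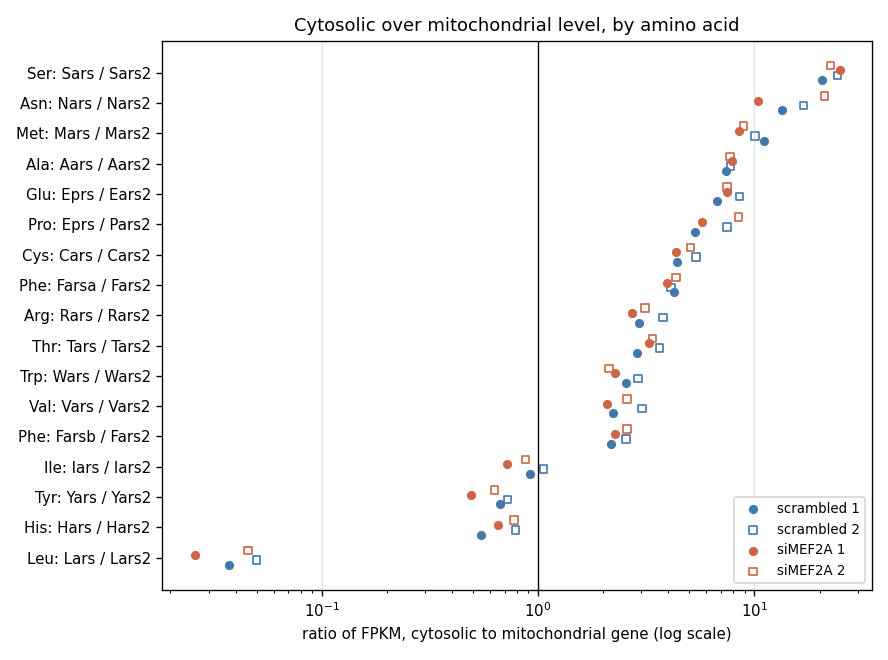
Ratio of the cytosolic to the mitochondrial FPKM for each of 17 pairs by amino acid, on a log axis, with 1 point per library and a line at equal levels. Leucine lies far to the left, histidine and tyrosine lie left of the line in all 4 libraries, isoleucine straddles it, and the other 13 pairs lie to its right.

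When Mef2a was reduced, 0 of the 37 synthetase genes passed the test in either direction (limma, Benjamini-Hochberg adjusted p under 0.05), against 1.73% of all 11824 genes tested, of which 0.406% were higher and 1.32% were lower. At an unadjusted limma p under 0.05 the count was also 0 of 37, against 6.39% of all genes. The smallest adjusted p was 0.847, for Yars. Fold changes ran from -0.30 for Yars to 0.35 for Lars2 on the log2(FPKM + 1) scale, which understates the change of low genes. The median was -0.02 over cytosolic genes and -0.01 over mitochondrial genes, beside 0.04 over all genes. A missed threshold does not show equal levels, but on the log2(FPKM + 1) scale the 95% interval lay within 1.5-fold either way for 35 of the 37 genes, all but Yars and Lars2, against 88.9% of all genes. It lay within 2-fold for all 37. As fold changes of FPKM itself these intervals are wider, most so for low genes. In simulated data with the means of these 11824 genes, the same test recovered 52.2% of the 67 genes changed by 1.5-fold and 95.5% of the 67 changed by 2-fold, with 9 calls among unchanged genes. It made 0 to 3 calls in each of 10 runs where nothing was changed. The simulated noise was drawn independently for each gene and library, from the variance model that the test itself assumes. Differences between libraries shared by many genes were not simulated. These figures therefore describe the test under its own assumptions and not its error rate in these libraries. The changed genes of the simulation were drawn from better expressed genes alone, with the change set on the log2(FPKM + 1) scale. Recovery among low genes such as Mars2 was therefore not simulated.

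**Figure D3:**
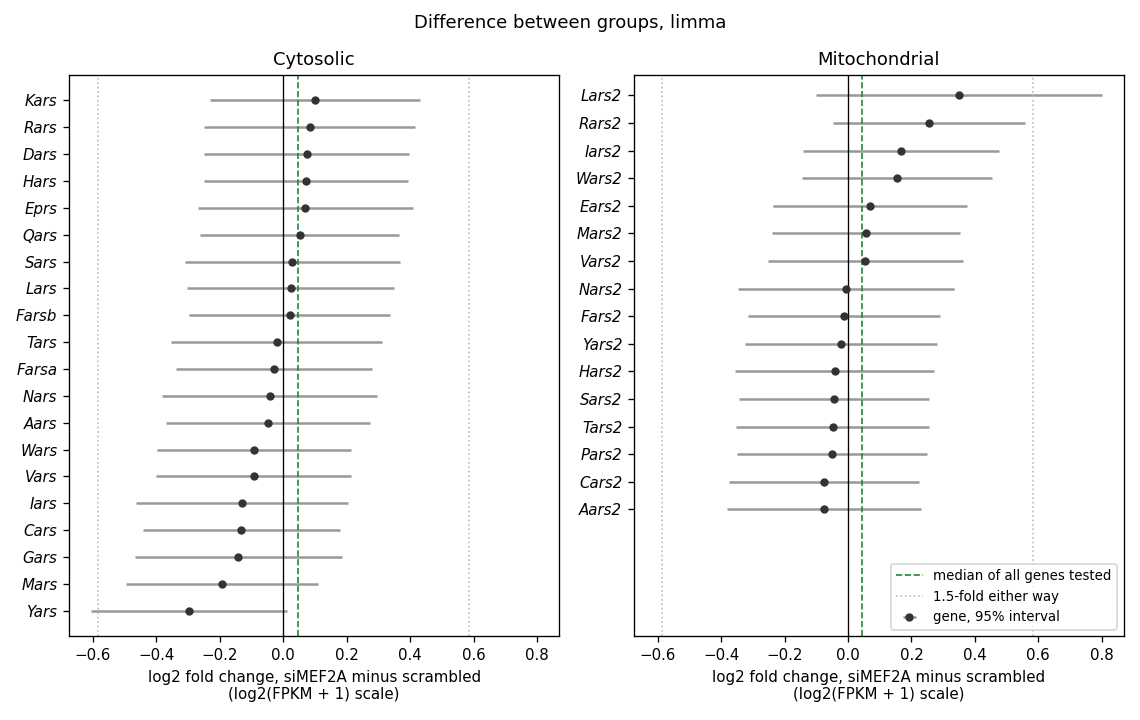
Log2 fold change of 36 of the 37 genes, siMEF2A minus scrambled on the log2(FPKM + 1) scale, with its 95% interval from limma; the solid line marks no change, the dashed line the median of all genes tested and the dotted lines 1.5-fold. Every interval includes 0, and those of Yars and Lars2 cross a dotted line.

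The groups did not overlap for 9 synthetase genes. Both siMEF2A libraries were above both scrambled ones in 6 of the 37, Iars2, Lars2, Mars2, Qars, Rars2 and Wars2, where 18.8% of all genes were. They were below in 3 of the 37, Cars2, Mars and Yars, where 9.14% of all genes were. Of the 6 higher genes 5 are among the 17 mitochondrial genes, a split that was not tested. Over coding transcripts alone, the groups of Rars2 and Wars2 overlapped. Qars, for glutamine, is a cytosolic member of the complex. The separation was small in most of the 6 higher genes. Iars2, for isoleucine, was at 13.6 and 16.3 FPKM with scrambled siRNA against 16.3 and 17.4 FPKM after siMEF2A. Its groups nearly touched. Iars2 also shares 2034 exon bases with Rab3gap2 on the opposite strand, and with no stated use of strand the reads of the shared stretch cannot be told apart.

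Yars (chromosome 4, 129189760 to 129219607, plus strand, mm10) was at 6.80 and 8.01 FPKM with scrambled siRNA against 5.38 and 6.31 FPKM after siMEF2A. Its siMEF2A mean was 78.9% of the scrambled mean (log2 fold change -0.30, SE 0.15, 95% interval -0.61 to 0.01, limma Benjamini-Hochberg adjusted p = 0.847). All 6 of its listed transcripts are noncoding forms, retained introns and processed transcripts, so the value says little about the messenger RNA that encodes the enzyme. One of the noncoding forms that make up the sum, ENSMUST00000137591, was at 1.37, 3.54, 0.722 and 2.16 FPKM in the order scrambled 1, scrambled 2, siMEF2A 1, siMEF2A 2, and its groups overlapped.

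Rars2, the mitochondrial arginine enzyme, was at 11.7 and 12.5 FPKM with scrambled siRNA against 15.0 and 14.2 FPKM after siMEF2A, 121% of the scrambled mean (log2 fold change 0.26 with an SE of 0.15, limma adjusted p = 1.0). Part of this difference lay in a short processed transcript, ENSMUST00000141519, listed at 1.02e-05 and 2.76e-06 FPKM in scrambled 1 and 2 but at 1.15 FPKM in siMEF2A 1 and 1.95 FPKM in siMEF2A 2. The coding transcript alone was at 11.7 and 12.5 FPKM with scrambled siRNA against 13.8 and 12.2 FPKM after siMEF2A, with overlapping groups and a log2 difference of 0.10. Wars2, the mitochondrial tryptophan enzyme, was at 3.31 and 3.51 FPKM with scrambled siRNA against 3.75 and 4.06 FPKM after siMEF2A. Its log2 fold change was 0.15 over all transcripts and -0.01 over coding transcripts alone.

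Mars, the cytosolic methionine enzyme (chromosome 10, 127296221 to 127311786, minus strand, mm10), had a lower sum and no clear direction in its coding transcript. Its sum was at 24.4 and 23.6 FPKM with scrambled siRNA against 20.3 and 21.4 FPKM after siMEF2A, lower in both siMEF2A libraries (log2 fold change -0.19 with an SE of 0.15, limma adjusted p = 1.0). The coding transcript alone was at 9.24 and 14.0 FPKM with scrambled siRNA against 13.0 and 13.2 FPKM after siMEF2A, with overlapping groups and a log2 fold change of 0.19 that was -0.090 without scrambled 1. The lower sum lay in some of the retained-intron transcripts. One of 467 bases, ENSMUST00000139683, had 4.21 and 1.53 FPKM with scrambled siRNA, 0.557 FPKM in siMEF2A 1, and was listed at 0 in siMEF2A 2. Another of 3065 bases, ENSMUST00000145275, was at 10.1 and 7.55 FPKM with scrambled siRNA against 6.22 and 6.80 FPKM after siMEF2A. Scrambled 1 was the highest library for both of these retained-intron forms and the lowest for the coding form. A further retained-intron form of 574 bases, ENSMUST00000128369, was at 0.857 and 0.493 FPKM with scrambled siRNA against 0.597 and 1.37 FPKM after siMEF2A. Mars shares 68 exon bases with Ddit3, which lies on the opposite strand and encodes the stress factor CHOP.

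Across transcripts, 131 were listed for the 38 genes: 61 protein-coding, 69 noncoding and 1 not found in the annotation, which holds 303 for these genes. Of the 78 with a mean of at least 1 FPKM, 0 passed the same limma test over transcripts (adjusted p under 0.05), against 0.225% of the 23600 transcripts tested, and 2 had an unadjusted p under 0.05, against 5.67%. These were the 467-base Mars transcript (log2 fold change -1.54 with an SE of 0.36, limma adjusted p = 0.274) and a Farsa transcript marked for nonsense-mediated decay (ENSMUST00000156970; -0.62, SE 0.22, limma adjusted p = 0.698). Farsa encodes the alpha subunit of the phenylalanine enzyme. The Mars transcript passed without scrambled 2 (limma adjusted p = 0.0243) and without siMEF2A 1 (limma adjusted p = 0.000543), fits in which one group has a single library that is assumed to vary like the other. Its adjusted p over all alternatives ran up to 0.650.

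How much of a gene's value came from protein-coding transcripts differed widely among the synthetases. It was 100% for 18 of the 37 genes. Vars2 had 35.8%, Hars2 had 36.4% and Yars had none. Kars showed its 2 known products through coding transcripts alone: the form of 595 codons, ENSMUST00000034426, was at 40.9 and 53.9 FPKM with scrambled siRNA against 50.5 and 51.8 FPKM after siMEF2A. The main form of 624 codons, ENSMUST00000093120, was at 9.65 and 11.4 FPKM with scrambled siRNA against 10.2 and 11.2 FPKM after siMEF2A. Both forms had overlapping groups. With coding transcripts alone, a choice made after seeing the data, 0 of 35 synthetase genes tested passed (limma adjusted p under 0.05; 0 at an unadjusted p under 0.05), against 2.14% of all genes, and the medians were 0.03 for cytosolic and -0.01 for mitochondrial genes beside 0.06 for all.

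**Figure D4:**
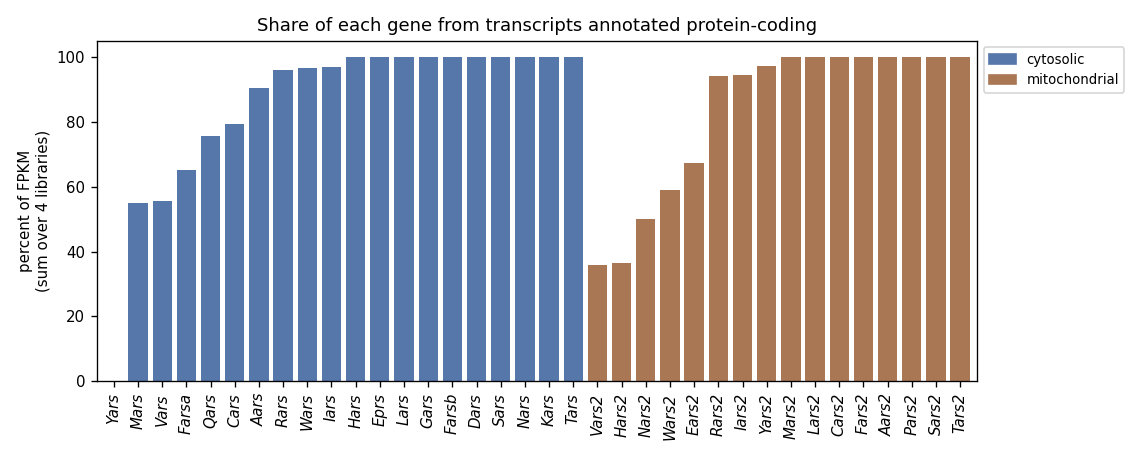
Percent of FPKM by gene for 36 of the 37 genes, summed over the 4 libraries, that came from transcripts annotated as protein-coding, with cytosolic genes in blue and mitochondrial genes in brown. Yars is at 0, Vars2 and Hars2 lie below 50%, and 18 genes reach 100%.

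Among cytosolic enzymes, 0 genes were called in the multi-synthetase complex and 0 outside it, against 1.73% of all genes. At that share, 0 calls among so few genes say little about either class. Besides Kars, the complex holds 7 of these genes, namely Dars, Eprs, Iars, Lars, Mars, Qars and Rars. They showed a median of 0.05 on the log2 fold change scale, and the 11 free enzymes showed -0.04. Rars, for arginine, was at 34.1 and 47.0 FPKM with scrambled siRNA against 40.9 and 44.2 FPKM after siMEF2A. Eprs was at 18.4 and 26.0 FPKM with scrambled siRNA against 20.3 and 26.1 FPKM after siMEF2A. Both siMEF2A values of Rars lay between the scrambled ones, and Eprs overlapped as well. Of the dual enzymes, Gars was at 49.6 and 61.6 FPKM with scrambled siRNA against 47.9 and 52.2 FPKM after siMEF2A (log2 fold change -0.14), and Kars had a log2 fold change of 0.10. By catalytic class, cytosolic genes had medians of -0.09 for class I and 0.00 for class II, and mitochondrial genes had 0.07 for class I and -0.04 for class II. The difference between these subgroups was not tested.

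For cytosolic genes, the median difference between libraries of the same group was larger than that between the groups. Scrambled 2 was above scrambled 1 in 19 of 20 cytosolic genes, with a median log2 difference of 0.33, and in 13 of 17 mitochondrial genes, with a median of 0.07. Over all genes 65.7% were higher in scrambled 2 and the median was 0.09. In siMEF2A, library 2 was above library 1 in 18 of 20 cytosolic genes (median 0.12) and 8 of 17 mitochondrial genes (median -0.03), against 62.6% of all genes (median 0.07). Tars, the cytosolic threonine enzyme, had 26.7 FPKM in the library scrambled 1 and 37.1 FPKM in scrambled 2, with 28.8 and 33.4 FPKM in siMEF2A between them. Longer genes tended to be higher in library 2. Across the 11650 genes with a length, Pearson's r between log2 length and the difference was 0.348 in scrambled and 0.350 in siMEF2A, and across the 20 cytosolic genes it was 0.471 and 0.509. Across the 17 mitochondrial genes it was 0.189 and 0.055, and across all 37 synthetases 0.247 and 0.147. Genes share their libraries and are not independent replicates, and the part of length in the difference was not tested. The cytosolic median between groups therefore turned with the library left out: it was -0.18 without scrambled 1, 0.13 without scrambled 2, 0.05 without siMEF2A 1 and -0.10 without siMEF2A 2.

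**Figure D5:**
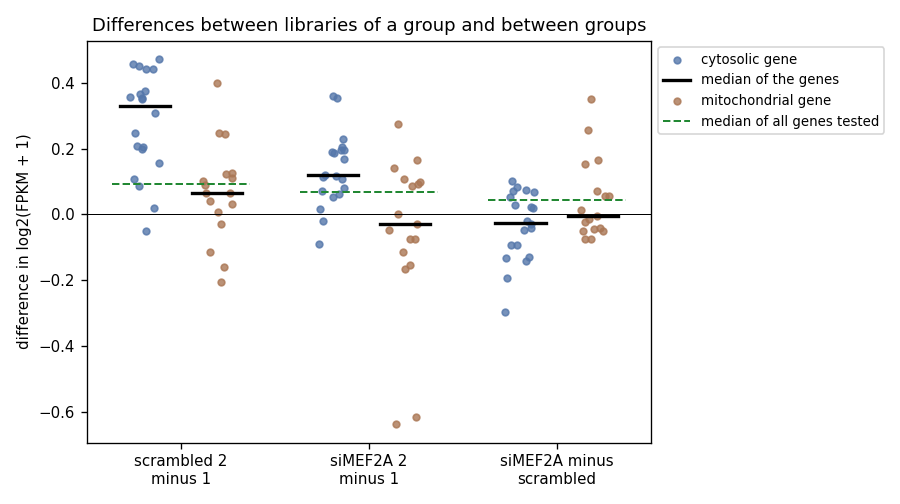
Differences in log2(FPKM + 1) between the 2 libraries of each group and between the groups, with 1 point per synthetase gene (blue cytosolic, brown mitochondrial), a bar at their median and a dashed line at the median of all genes. Cytosolic genes sit highest in the scrambled comparison (median 0.33) and lie around 0 between groups (-0.02).

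Lists of genes that work with the synthetases, and of ATF4 and amino acid response genes, also gave 0 calls (limma adjusted p under 0.05). In these 6 lists 102 genes were tested in all, and 7 had an unadjusted limma p under 0.05, all of them in the ATF4 list. Over all genes 1.73% were called and 6.39% had that unadjusted p. Among scaffolds of the complex and subunits of the mitochondrial glutamine amidotransferase, 6 were tested with a median of 0.00. Eef1e1, a scaffold of the complex, was at 39.4 and 34.1 FPKM with scrambled siRNA against 33.3 and 28.8 FPKM after siMEF2A, and Qrsl1, an amidotransferase subunit, was at 3.65 and 3.71 FPKM with scrambled siRNA against 4.63 and 3.93 FPKM after siMEF2A. Both separated the groups without passing (limma adjusted p = 1.0 each). Medians were -0.02 over 7 proofreading and synthetase-like genes, 0.09 over 8 cytosolic elongation factors, 0.04 over 13 mitochondrial translation factors and 0.05 over 32 tRNA maturation genes.

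The list of ATF4 and amino acid response genes held the 7 genes with an unadjusted limma p under 0.05 among its 36 tested, and all 7 were lower in siMEF2A, against 6.39% of all genes in either direction. Its median was -0.06 beside 0.04 for all genes, and the groups did not overlap in 13 genes that were lower, against 9.14% of all genes, and 5 that were higher, against 18.8%. The 5 higher genes were Cebpb, Cebpg, Ddit3, Ddit4 and Eif2ak4. Fgf21, a secreted factor of metabolic stress, was at 26.7 and 30.6 FPKM with scrambled siRNA against 20.4 and 18.2 FPKM after siMEF2A, 67.4% of the scrambled mean (log2 fold change -0.54 with an SE of 0.15, limma adjusted p = 0.0612). Chac1, which degrades glutathione, was at 7.74 and 8.50 FPKM with scrambled siRNA against 4.85 and 6.70 FPKM after siMEF2A, 71.1% (log2 fold change -0.44 with an SE of 0.16, limma adjusted p = 0.258). Both genes had siMEF2A libraries below the scrambled ones. Atf4 itself had 173 and 174 FPKM with scrambled siRNA against 170 FPKM in both siMEF2A libraries (log2 fold change -0.04). The 5 synthetase genes with the TGATGNAA element had log2 fold changes of -0.05 for Aars, -0.14 for Gars, -0.13 for Iars, -0.02 for Tars and -0.30 for Yars. None of them passed, and the Yars value rests on noncoding transcripts alone. Among all 20 cytosolic genes, 11 had negative and 9 had positive fold changes. Asns, the asparagine synthetase gene and a known ATF4 target, was at 22.1 and 24.2 FPKM with scrambled siRNA against 17.9 and 19.1 FPKM after siMEF2A, 79.9% (limma adjusted p = 0.756). Asns was added to the examples from this list after its values were seen. Dars and Tars2, which hold the MEF2 matches, had log2 fold changes of 0.07 and -0.05.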

How the data were processed

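RNA-seq values were used from 4 libraries, 2 per group, grouped by their titles. Per the file headers, the authors deposited 1 FPKM value per Ensembl transcript and library. Build mm10 and the tools Bowtie, CASAVA, Cufflinks, TopHat and Trimmomatic appear in the submitters' processing notes without roles. Their versions, the annotation, any use of strand and any scaling between libraries are not stated there. FPKM of the listed transcripts of a symbol were summed, leaving out 26 symbols of small RNAs. The 11824 genes whose mean reached 1 FPKM were tested as log2(FPKM + 1), with no further scaling. The test was limma 3.58.1 in R 4.3.3 (two-sided, intensity trend, Benjamini-Hochberg adjustment over all genes tested). The test had 2 residual and 29 prior degrees of freedom, so a p rests mostly on spread pooled over genes. It was tested on simulated data. Lengths, types and coordinates are from GENCODE M21, which held 97.3% of transcripts. Related transcripts were searched with BLAST at 95% identity or more. The synthetase genes and the lists of related genes and markers were chosen with earlier results of these data known. Synthetase genes are named or given by range, except 1 mitochondrial gene that is counted but not reported singly here, with Mef2a and the 2 genes of smallest p in a list described in detail. Fragment counts were not used, so no counting interval is given. The alternatives were other scalings, pseudocount, filter, moderation, a length adjustment, a replicate block, coding transcripts alone and leaving out each library.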

Additional observations from a re-analysis of the deposited data

How the results depend on the processing

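With each of 17 other settings, 0 synthetase genes passed, while 0 to 4 had an unadjusted limma p under 0.05. The titles number both groups 1 and 2, but the value columns number the scrambled libraries otherwise and the labels do not say that numbers pair libraries. With the title number as a replicate block, 508 genes passed instead of 204 (217 higher and 291 lower), 0 synthetases and 4 related genes (Chac1, Fgf21, Mthfd2 and Trib3, all lower); the differences between libraries 2 and 1 correlated between groups at 0.292 across all genes and 0.557 across the 37 synthetases.

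Calls over all genes were 130 with a length adjustment (15 higher and 115 lower), 367 with length adjustment and replicate block together, 134 with a minimum of 5 FPKM and 118 with quantile normalization. Median-ratio scaling gave 13 higher and 131 lower, against 48 and 156 in the main analysis. The mitochondrial median was -0.055 with the length adjustment, with or without the replicate block, and -0.049 with median-ratio scaling. Both settings also moved the median of all genes from 0.04 to near 0. Relative to all genes, the mitochondrial median was -0.051 in the main analysis, -0.056 with the length adjustment and -0.045 with median-ratio scaling. Related genes called were 3 with length adjustment and replicate block, and 1 each with the 5 FPKM minimum, with robust moderation and with coding transcripts alone, where Fgf21 passed each time. Leaving out each library in turn gave mitochondrial medians of -0.018 to 0.047, 0 to 1 related genes and 0 to 1 synthetase transcripts. Of 148 leave-one-out fold changes of single synthetase genes 30 moved by more than their SE, and of 472 under other settings 4 did. The lowest and highest adjusted p for Yars were 0.0808 with the replicate block and 1.0. Transcripts were not fitted with small RNA symbols kept, without the trend, with robust moderation or with length adjustment. Absolute depth is unknown, so counting error in low genes such as Mars2 could not be set apart.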
